A study of Mus musculus with 44 samples.

Results

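This section describes how 2 macrophage (MF) subsets of regenerating skeletal muscle differed from each other at day 2 after injury in WT mice given rosiglitazone. The Ly6C- F4/80high subset was measured on 3 arrays and the Ly6C+ F4/80low subset on 3 arrays, 6 of the 44 arrays of the series, and all 19938 named genes of the table were compared. Ly6C is a surface protein of freshly recruited inflammatory monocytes, F4/80high cells carry much of the MF surface antigen encoded by Adgre1, and rosiglitazone is an agonist of PPARγ, a nuclear receptor that controls lipid uptake and storage genes as a heterodimer with RXR. The tibialis anterior muscle had been injured with cardiotoxin, a snake venom toxin that kills muscle fibres, and CD45+ cells were enriched on magnetic beads before both subsets were sorted.

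The 2 rosiglitazone groups came from WT C57B6/J mice. They were set against untreated WT C57B6/J mice at day 2 (6 Ly6C- and 6 Ly6C+ arrays) and against untreated KO mice at day 2 (5 Ly6C- and 5 Ly6C+ arrays), which carried PPARg fl/fl on C57B6/J and LysM Cre+. LysM Cre is expressed from the lysozyme gene Lyz2 in myeloid cells, so that the deletion is aimed at myeloid cells. The other 16 arrays, Ly6C+ MFs of untreated WT and KO mice at day 1 and day 4, entered the fit for the estimate of the spread. The sources used here give no ages, no dose, route or schedule of rosiglitazone, and no vehicle for the untreated mice. The arrays are labelled as biological replicates, and whether the Ly6C- and Ly6C+ samples of the same number came from the same animal is not stated.

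MFs in injured muscle begin as Ly6C+ monocyte-derived cells that clear debris and secrete inflammatory cytokines, and give way to Ly6C- cells that secrete growth factors and help muscle precursors to differentiate. PPARγ, together with the cholesterol sensor LXR, is among the nuclear receptors that MFs use to read lipids taken up with dead cells. Fabp4, Cd36, Angptl4 and Plin2 are textbook PPARγ target genes, and Gdf3 is a secreted growth factor of the TGF-β family.

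Values are log2 intensities, so a difference of 1 is a 2-fold difference, and every difference is Ly6C- minus Ly6C+. A gene was called when the limma test, adjusted by the Benjamini-Hochberg method over all 19938 genes, gave an adjusted p under 0.05. No detection calls were used, so a low value can be either a low level or background, and a fold change of a gene that is dim in the lower subset may understate the real difference. The sort itself was visible on the arrays. Ly6c1 and Ly6c2, which encode the sorted antigen, have no probe set of their own, and one that reads both gave 8.61, 8.84 and 8.65 on the Ly6C- arrays, against 12.02, 11.85 and 12.17 on the Ly6C+ arrays. Adgre1, the gene of the other sort marker, read 12.14, 12.06 and 12.02 on the Ly6C- arrays and 11.64, 11.66 and 11.60 on the Ly6C+ arrays (difference 0.44 ± 0.08 SE, adjusted p = 4.53e-05). Both sorted antigens ran the way the gates would have them, and because they were used to sort the cells they are no finding here. Csf1r, the receptor for the MF growth factor CSF1, was near 11.4 on all 6 arrays, between 11.27 and 11.57.

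Several arrays stood apart before any comparison was made. Lyz2, which drives the Cre of the KO mice, lay between 12.86 and 13.19 on all 6 rosiglitazone arrays and between 12.64 and 13.02 on the 6 arrays of untreated WT replicates 4 to 6, but between 8.67 and 9.29 on the 6 arrays of untreated WT replicates 1 to 3, a range that overlaps the KO arrays (9.18 to 9.93). In Lyz2 the arrays labelled WT replicates 1 to 3 therefore lay with the KO arrays and not with the other WT arrays. Lyz1, the other lysozyme gene, split the same arrays in the opposite direction. It ran from 11.84 to 12.22 on untreated WT replicates 1 to 3 and from 12.09 to 12.57 on the KO arrays. On the rosiglitazone arrays it ran from 9.93 to 10.48, and on untreated WT replicates 4 to 6 from 9.95 to 10.75. Pparg, the gene targeted in KO mice, lay between 10.10 and 10.62 on the KO arrays and between 10.04 and 10.37 on the rosiglitazone arrays. Whether its probe set lies in the deleted part is not known here, so this checks no label. Both arrays of untreated WT replicate 4 correlated better with the rosiglitazone arrays of the same subset (mean r = 0.9944 for Ly6C- and 0.9934 for Ly6C+) than with the other arrays of their own group (mean r = 0.9889 for Ly6C- and 0.9832 for Ly6C+). Those of replicate 5 did so by a smaller margin (0.9925 against 0.9912 for Ly6C- and 0.9780 against 0.9779 for Ly6C+). Counts from the comparison with untreated WT are therefore also given for replicates 1 to 3 and 4 to 6 apart. Within the rosiglitazone groups the arrays of 1 subset correlated at 0.990 to 0.995 and arrays of different subsets at 0.968 to 0.977.

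With rosiglitazone, 4634 of 19938 genes (23.2%) differed between the subsets. Of these, 2904 (14.6% of all genes) were higher and 1730 (8.68%) were lower in the Ly6C- subset, and 6449 genes had an unadjusted p under 0.05. In 4340 of the 4634 called genes the 3 arrays of one subset all lay beyond the 3 of the other, which was true of 6644 genes (33.3%) in all. Most of the differences were small, with a median size of 0.55 among called genes. Differences of at least 1 were called in 417 genes that were higher and 261 that were lower, and of at least 3 in 9 that were higher and 12 that were lower. The median SD of the 3 arrays was 0.136 in the Ly6C- subset and 0.13 in the Ly6C+ subset. The most extreme differences were thus of genes lower in the Ly6C- cells, although more genes were higher in them. The size of that excess depended on the processing. It was 2499 higher and 2187 lower with quantile normalization, and 3223 higher and 1313 lower with the medians of all probe sets centred. Since each array held the RNA of a sorted pool, fewer cells of a type and less RNA per cell cannot be told apart.

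**Figure D1:**
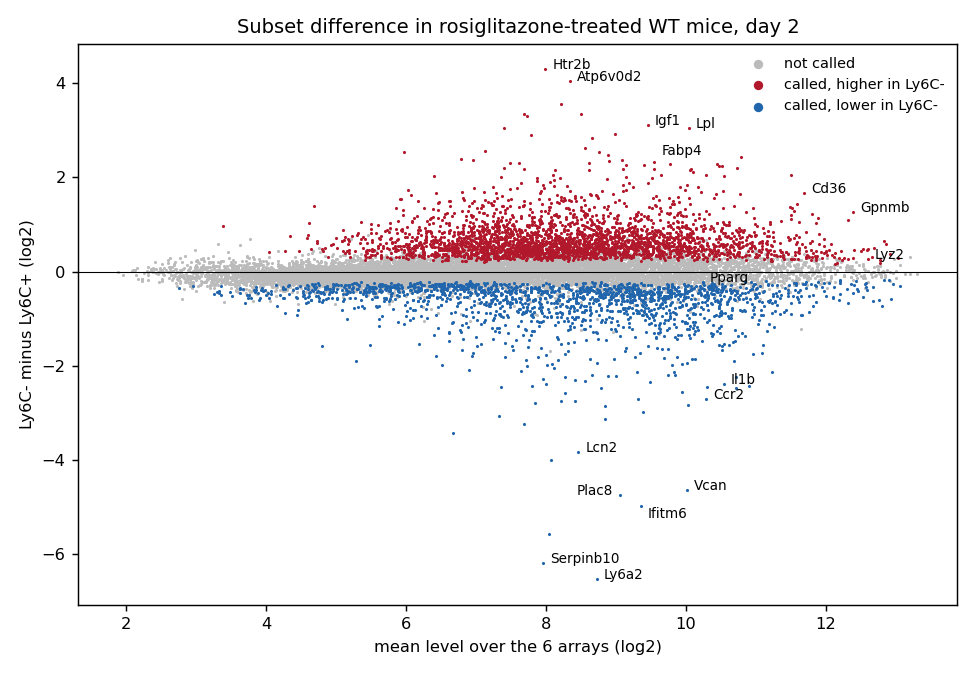
Each point is a gene, with its mean log2 level over the 6 rosiglitazone arrays on the horizontal axis and the Ly6C- minus Ly6C+ difference (log2) on the vertical axis, in red where called higher and in blue where called lower in Ly6C-. The 2904 higher genes reach 4.29 (Htr2b) and the 1730 lower genes reach -6.54 (Ly6a2), while Pparg and Lyz2 lie in the grey band near 0.

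Some of the gene groups that moved together are known for short shared promoter words, and promoter stretches of called members are shown here so that the genes can be read beside their values. RefSeq (GRCm38.p6) promoters, short windows around the annotated start, were matched by symbol for 15614 of the genes tested, and the first listed promoter of a gene was searched on both strands. The extended E-box TCACGTGA, the word of the lysosomal gene regulator TFEB, which holds the shorter E-box CACGTG within it, was found in 5 of 18 promoters of the lysosome list, against 1.35% of all 15614. Capitals mark the word in 3 lysosomal genes that were higher in Ly6C- cells. They are the cathepsin D gene (chr7:142387899-142387946, minus strand), the gene of the lysosomal calcium channel mucolipin (chr8:3500453-3500500, plus strand) and a proton pump subunit gene (chr16:44139364-44139411, minus strand).
Ctsd: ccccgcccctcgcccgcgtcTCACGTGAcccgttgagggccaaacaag
Mcoln1: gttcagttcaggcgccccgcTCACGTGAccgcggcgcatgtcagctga
Atp6v1a: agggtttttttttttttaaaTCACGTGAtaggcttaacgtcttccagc

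The interferon response word, GAAA and again GAAA after any 2 bases, was found in 8 of 15 promoters of the interferon list, against 3.32% of all promoters. Capitals mark a copy in 3 genes that were lower in Ly6C- cells: an oligoadenylate synthetase (chr5:120777705-120777754, minus strand), an inhibitor of viral translation (chr19:34640765-34640814, plus strand, where the word lies on the other strand) and the RNA sensor MDA5 (chr2:62646206-62646243, minus strand, within the transcribed part).
Oas3: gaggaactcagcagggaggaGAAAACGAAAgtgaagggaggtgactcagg
Ifit1: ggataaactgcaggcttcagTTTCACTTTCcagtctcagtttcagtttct
Ifih1: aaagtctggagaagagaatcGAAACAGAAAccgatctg

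An E2F word (TTTCCCGC, TTTGGCGC, TTTCGCGC or TTTGCCGC) was found in 6 of 15 promoters of the DNA replication list, against 3.08% of all. The cell cycle homology word TTTGAA was found in 9 of 13 promoters of the mitosis list, against 15.2%, and the CCAAT word in 11 of 13, against 38.2%. Capitals mark the E2F word in a pair of replicative helicase genes, Mcm6 (chr1:128359788-128359835, minus strand) and Mcm5 (chr8:75109336-75109383, plus strand), and the cell cycle homology word in the mitotic kinase gene Cdk1 (chr10:69352958-69353003, minus strand). The PPARγ and RXR word, AGGTCA and again AGGTCA after any 1 base, was found in 0 of 8 promoters of the PPAR target list and in 0.0448% of all, which says only that these letters are not in those windows. The words did not keep to called genes. The lysosome word was also in Atp6v0d1 and the interferon word in Oas1a, Ifit3, Stat2 and Rsad2, which were not called. Both mitosis words were in Bub1b, Aurka and Cdc20, which were not called either. Each match is a description of sequence, and binding was not measured on these arrays.
Mcm6: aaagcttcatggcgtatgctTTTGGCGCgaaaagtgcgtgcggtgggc
Mcm5: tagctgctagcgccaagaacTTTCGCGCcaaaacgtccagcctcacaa
Cdk1: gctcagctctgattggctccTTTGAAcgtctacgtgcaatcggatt

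Among genes higher in Ly6C- cells, the largest difference was in Htr2b, a serotonin receptor. Htr2b read 10.23, 10.14 and 10.04 on the Ly6C- arrays and 5.93, 5.67 and 5.94 on the Ly6C+ arrays, which is 19.6-fold higher (difference 4.29 ± 0.13 SE, adjusted p = 3.68e-27). Atp6v0d2, a subunit of the proton pump that acidifies lysosomes, read 10.71, 10.33 and 10.07 on the Ly6C- arrays and 6.01, 6.36 and 6.57 on the Ly6C+ arrays (16.6-fold higher, adjusted p = 1.85e-17). In both genes the subsets were separated by more than 3 log2 units and no array came near the other subset. Bhlhe41, a transcriptional repressor, was 3.35 ± 0.24 higher, and Npl, which breaks down sialic acid, was 3.34 ± 0.15 higher.

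Igf1, a growth factor for muscle fibres, read 11.26, 11.09 and 10.67 on the Ly6C- arrays and 8.09, 7.85 and 7.76 on the Ly6C+ arrays (8.64-fold higher, adjusted p = 1.95e-14). Lpl, the lipase that releases fatty acids from lipoproteins, was 8.23-fold higher, and Gas6, the ligand that bridges dying cells to TAM receptors, was 7.56-fold higher. Ccl8, a chemokine for monocytes and T cells, was 3.06 ± 0.39 higher with a wide spread, since it read 8.30, 8.81 and 9.69 on the Ly6C- arrays and 5.48, 5.74 and 6.39 on the Ly6C+ arrays. Of the remaining genes, differences ran from 3.55 in Serpinb6a, a protease inhibitor, to 2.37 in Cd9, a tetraspanin. Between them lay Plpp3 (a lipid phosphatase, 3.31), S1pr1 (a sphingosine 1-phosphate receptor, 2.90), Actn1 (an actin crosslinker, 2.84), Gdpd1 (2.63), Cd5l (a secreted MF protein, 2.57), Pon3 (a lactonase, 2.54), Cd59a (a complement inhibitor, 2.53), Rnf128 (a ubiquitin ligase, 2.48), Pmp22 (a membrane protein known from myelin, 2.44) and Cmbl (a hydrolase, 2.38).

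Genes lower in Ly6C- cells were led by Ly6a2, a member of the same Ly6 family as the sorted antigen. Ly6a2 read 5.03, 5.73 and 5.61 on the Ly6C- arrays, against 12.32, 11.75 and 11.91 on the Ly6C+ arrays (difference -6.54 ± 0.21 SE, adjusted p = 2.85e-26). Members of this family are similar in sequence, and how far a probe set of Ly6a2 or Ly6i (-3.08) also reads Ly6c transcripts was not tested. Serpinb10, a leukocyte protease inhibitor of another family, read 5.05, 4.80 and 4.76 on the Ly6C- arrays and 11.24, 10.80 and 11.11 on the Ly6C+ arrays (difference -6.18 ± 0.21, adjusted p = 4.99e-25). Both genes were at or above 10.80 on every Ly6C+ array and below the array medians over all genes (6.78 to 6.87) on every Ly6C- array.

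Behind them came genes that mark inflammatory monocytes. Ifitm6, an interferon-inducible membrane protein, was lower by 4.99, Plac8 by 4.74, Vcan, the matrix proteoglycan versican, by 4.63, and Hp, haptoglobin, by 3.12 on the log2 scale. Vcan read 7.33, 7.88 and 7.88 on the Ly6C- arrays and 12.36, 12.37 and 12.26 on the Ly6C+ arrays. Ccr2, the receptor that brings monocytes out of the bone marrow, read 8.44, 9.03 and 9.33 on the Ly6C- arrays and 11.68, 11.72 and 11.55 on the Ly6C+ arrays (difference -2.72 ± 0.15, adjusted p = 1.58e-17). Acute phase proteins were lower as well, with Lcn2, the siderophore-binding lipocalin, at -3.83 ± 0.29 and Lrg1 at -2.76 ± 0.25. Surface receptors of the list were Klra2 (-3.99), Adgre4 (-3.42), Gpr141 (-3.24), Trem1 (an amplifier of inflammatory signals, -2.98), Itgal (the integrin LFA-1, -2.86), Il1r2 (the decoy receptor for IL-1, -2.79), Siglece (an inhibitory sialic acid receptor, -2.74) and Pilrb1 (-2.71). Slfn1 (-2.84) and Ahr, the aryl hydrocarbon receptor (-2.58), closed the 20.

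**Figure D2:**
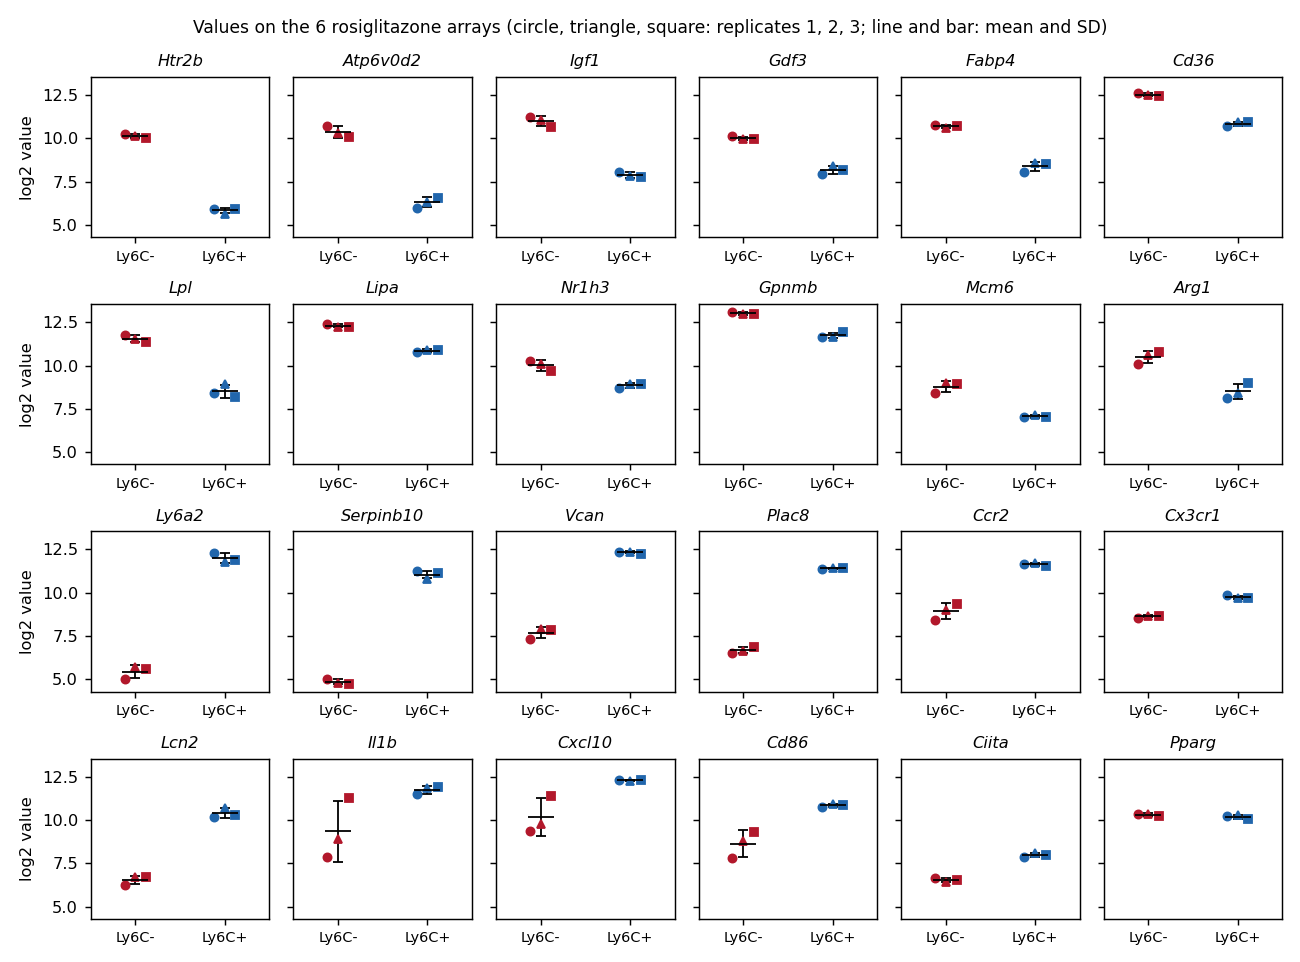
Log2 values of 24 genes on the 6 rosiglitazone arrays, Ly6C- (red) left and Ly6C+ (blue) right of each panel, with symbols for replicates 1 to 3 and the mean with its SD (n = 3 each). The subsets do not overlap in any panel but Pparg, although in Il1b the highest Ly6C- array (11.28) comes within 0.2 of the lowest Ly6C+ array (11.47).

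Lists of genes were then read against the background, in which 14.6% of all genes were called higher and 8.68% lower and the median difference was -0.04. The lists were chosen with earlier results of these data known, and several members are among the largest differences named above. Shares beyond the background are therefore a description and no independent support. Of 15 measured monocyte identity genes 12 were lower and 0 higher (median -1.87), including F10, coagulation factor X (-1.87), and Chil3, a chitinase-like protein of monocytes (-1.05). MF maturation genes ran the other way, with 11 of 14 higher and 0 lower (median 1.00). Adgre1, whose product was used to sort the cells, is among these 11, and its call is no finding. Ly6i, for which reading of Ly6c transcripts was not tested, is among the 12 lower monocyte identity genes. Fcrls, a scavenger-type Fc receptor-like gene, was 2.27 ± 0.22 higher and the tetraspanin gene Cd63 was 2.02 ± 0.21 higher. Gpnmb, a lysosomal glycoprotein of lipid-laden MFs, read 13.12, 12.99 and 12.98 on the Ly6C- arrays and 11.67, 11.67 and 11.93 on the Ly6C+ arrays. Cx3cr1, the fractalkine receptor often used to mark patrolling Ly6C- blood monocytes, was lower, not higher, in Ly6C- MFs, at 8.57, 8.68 and 8.68 against 9.86, 9.68 and 9.68 on the Ly6C+ arrays (difference -1.10 ± 0.24, adjusted p = 3.66e-04).

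Pparg itself did not pass the test. It read 10.33, 10.37 and 10.22 on the Ly6C- arrays and 10.25, 10.26 and 10.04 on the Ly6C+ arrays (difference 0.12, 95% interval -0.22 to 0.46, adjusted p = 0.668). Of 13 measured genes for PPARs, RXRs and their cofactors, 2 were higher and 3 were lower. Rxra, the partner of PPARγ, was 0.65 ± 0.12 higher and the coactivator gene Ppargc1b was 0.60 ± 0.13 higher. Ppard (-0.43), Rxrb (-0.34) and Med1 (-0.36) were lower, and without Ly6C- replicate 1 only 1 of these 3 calls was left. None of the 5 called genes differed by more than 0.65.

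Among 14 measured PPAR target and lipid handling genes 7 were higher and 3 lower (median 0.32). Fabp4, a fatty acid carrier, read 10.80, 10.62 and 10.70 on the Ly6C- arrays and 8.09, 8.59 and 8.50 on the Ly6C+ arrays (4.98-fold higher, difference 2.32 ± 0.21, adjusted p = 1.98e-11). Cd36, the fatty acid and oxidised lipoprotein receptor, read 12.62, 12.49 and 12.47 on the Ly6C- arrays and 10.73, 10.92 and 10.92 on the Ly6C+ arrays (3.18-fold higher). Both genes were tight in the Ly6C- subset and separated the subsets on every array. Angptl4, a secreted inhibitor of lipoprotein lipase, spread more, with 9.76, 9.42 and 8.44 on the Ly6C- arrays and 7.30, 7.63 and 7.23 on the Ly6C+ arrays (difference 1.82 ± 0.23, adjusted p = 4.13e-08). Fabp5 was 2.04 ± 0.21 higher, and Plin2, the coat protein of lipid droplets, was 0.51 ± 0.11 higher at a level near 12.9 on the Ly6C- arrays. The 3 lower members all handle triglycerides. Gpat3 (-1.52) and Dgat2 (-1.23) act in their synthesis and Lipe (-1.07) in their breakdown, while Dgat1, the other acyltransferase of the last step, was higher (0.57).

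Fatty acid oxidation genes were mostly higher, with 15 of 19 called higher, 0 lower and all 19 differences above 0 (median 0.60). Decr1 (1.48 ± 0.14) and Hadh (1.43 ± 0.12), enzymes of mitochondrial β-oxidation, were highest. Respiratory chain and TCA cycle genes showed 13 of 19 higher and 0 lower (median 0.46), led by Ndufa9 of complex I (1.22 ± 0.17), and this count was 8 without Ly6C- replicate 2 or without Ly6C+ replicate 1. Ly6C+ replicate 2 lay above its group in these genes. Cox5a, for example, read 9.44, 9.62 and 9.73 on the Ly6C- arrays and 8.40, 9.18 and 8.58 on the Ly6C+ arrays. Glycolysis and hypoxia genes were mixed, with 5 of 18 higher, among them Pdk1 (0.78) and Aldoa (0.58), 1 lower (Pfkp, -0.46) and 12 not called. The higher count was 2 without Ly6C- replicate 3 and 3 without Ly6C+ replicate 1, and the lower count was 3 without Ly6C- replicate 3 and 0 without Ly6C- replicate 1 or without Ly6C+ replicate 2.

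Cholesterol genes went in opposite directions by role. Of 11 measured LXR target and cholesterol export genes 8 were higher and 1 lower (median 0.57). The sterol exporter gene Abca1 read 11.20, 11.19 and 11.37 on the Ly6C- arrays and 9.37, 9.59 and 9.87 on the Ly6C+ arrays, and Mylip, the ligase that degrades the LDL receptor, was 1.37 ± 0.14 higher. Nr1h3, which encodes LXRα, read 10.28, 10.08 and 9.68 on the Ly6C- arrays and 8.71, 8.94 and 8.94 on the Ly6C+ arrays (difference 1.15 ± 0.14, adjusted p = 2.14e-08). Scarb1, the HDL receptor, was the lower member (-0.47). Of 18 cholesterol synthesis genes 7 were lower and 2 higher (median -0.34), with Cyp51 at -1.25 ± 0.16 and Idi1 at -1.22 ± 0.30, and with Mvk (0.66) and Dhcr7 (0.53) the other way.

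The lysosome and proton pump list was higher in 18 of 22 measured genes and lower in 0 (median 0.63). Lipa, the acid lipase that frees cholesterol from its esters, read 12.40, 12.24 and 12.25 on the Ly6C- arrays and 10.77, 10.92 and 10.92 on the Ly6C+ arrays (difference 1.43 ± 0.10, adjusted p = 2.47e-14). The 3 genes whose promoter words are printed above were among the 18, with Atp6v1a 0.92 ± 0.09, Ctsd 0.66 ± 0.12 and Mcoln1 0.54 ± 0.12 higher. Genes for engulfing dead cells and for complement C1q were higher in 10 of 16 and lower in 1 (median 0.50). Mertk, a receptor for Gas6, was 1.22 ± 0.17 higher, and C1qa was 2.05 ± 0.26 higher although its Ly6C+ arrays spread from 8.63 to 10.09. Axl, another Gas6 receptor, was the lower member (-0.81 ± 0.17), and Tyro3, the remaining one, was not called (-0.11). Iron and heme genes were higher in 7 of 11 and lower in 0 (median 0.69), with the transferrin receptor Tfrc at 1.77 ± 0.14 and the heme transporter Slc48a1 at 1.11 ± 0.19.

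Growth and repair factors were split, with 8 of 18 higher and 3 lower (median 0.24). Besides Igf1, Pdgfc read 8.81, 8.74 and 8.74 on the Ly6C- arrays and 6.41, 6.45 and 6.54 on the Ly6C+ arrays (difference 2.30 ± 0.14, adjusted p = 1.60e-16). Gdf3 read 10.12, 9.98 and 9.96 on the Ly6C- arrays and 7.97, 8.41 and 8.17 on the Ly6C+ arrays (3.57-fold higher, difference 1.84 ± 0.15, adjusted p = 1.29e-12). Both factors were nearly constant across the Ly6C- arrays. Osm (oncostatin M, -1.74 ± 0.30) and Csf1 (-0.66 ± 0.17) were lower, and the lower count was 5 without Ly6C- replicate 3. Matrix remodelling genes divided in the same way, with 6 of 14 higher, among them Timp2, a protease inhibitor (2.24 ± 0.14), and the elastase Mmp12 (1.94 ± 0.19), and 4 lower, among them Mmp19 (-1.32 ± 0.29) and the urokinase receptor Plaur (-0.78 ± 0.16). The lower count was 2 without Ly6C- replicate 1 or without Ly6C+ replicate 3. Of 15 alternative activation genes 4 were higher and 4 lower. Arg1, arginase, read 10.11, 10.63 and 10.78 on the Ly6C- arrays and 8.14, 8.42 and 8.98 on the Ly6C+ arrays, and the folate receptor Folr2 was 2.24 ± 0.17 higher, while Clec7a, the β-glucan receptor, was lower (-1.83 ± 0.13). Without Ly6C- replicate 1 only 1 of the 4 lower calls of this list was left, and without Ly6C+ replicate 1 or Ly6C+ replicate 3 there were 2.

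DNA replication genes were higher in all 18 members measured (median 1.18) and mitosis genes in 14 of 17, with 0 lower (median 0.91). Mcm6, a subunit of the replicative helicase, read 8.41, 8.98 and 8.95 on the Ly6C- arrays and 7.06, 7.16 and 7.01 on the Ly6C+ arrays (difference 1.70 ± 0.16, adjusted p = 2.08e-11). Mcm5 was 1.20 ± 0.13 higher. Cyclin A2 (Ccna2) was 2.37 ± 0.22 higher and Cdk1 1.61 ± 0.18 higher. The subsets did not overlap in any of these 4 genes.

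**Figure D3:**
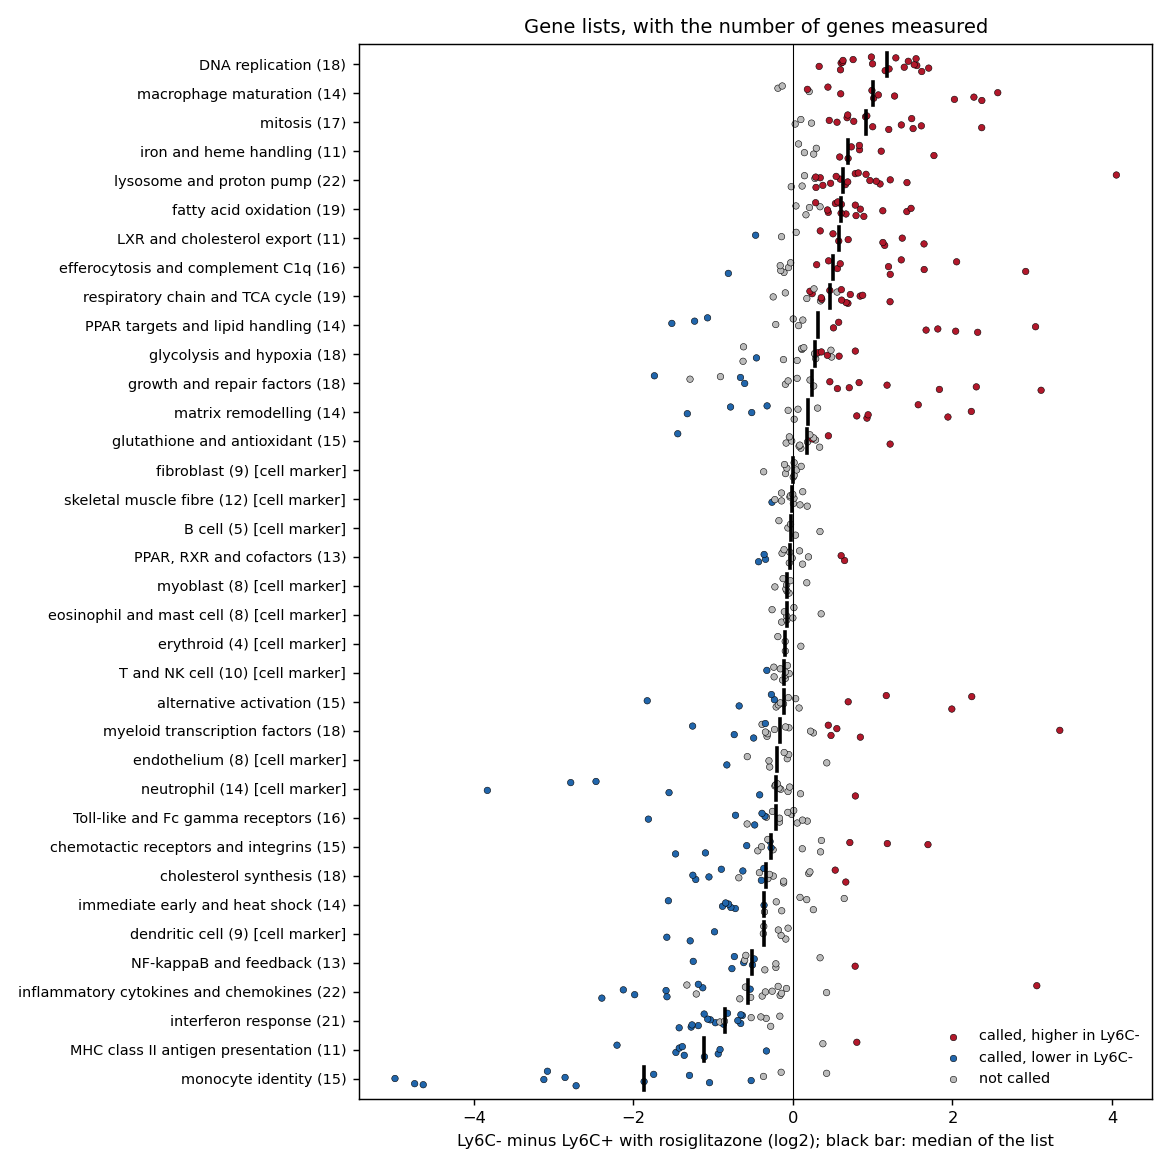
Ly6C- minus Ly6C+ differences (log2) of the measured members of each list, ordered by the median (black bar), with called members in red (higher in Ly6C-) and blue (lower). DNA replication (median 1.18) and MF maturation (1.00) stand at the top and monocyte identity (-1.87) and MHC class II (-1.11) at the bottom, while the lists of muscle, fibroblast and lymphocyte markers lie near 0. The MF maturation list holds the sort marker gene Adgre1.

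Inflammatory cytokines and chemokines were lower in 8 of 22 genes and higher in 1, Ccl8 (median -0.57). Cxcl10, an interferon-induced chemokine, read 9.33, 9.76 and 11.39 on the Ly6C- arrays and 12.29, 12.27 and 12.31 on the Ly6C+ arrays (difference -2.13 ± 0.36, adjusted p = 1.37e-05). Il1b, the gene of interleukin 1β, read 7.85, 8.90 and 11.28 on the Ly6C- arrays and 11.47, 11.85 and 11.91 on the Ly6C+ arrays (difference -2.40 ± 0.57, adjusted p = 0.00139). The SE and adjusted p of both genes rest on the spread pooled over all 44 arrays, not on that of these 6 arrays. In both genes Ly6C- replicate 3 lay far above the other Ly6C- arrays and close to the Ly6C+ arrays. This held for the list, whose median level was 8.48, 8.92 and 10.49 on the Ly6C- arrays and 9.90, 10.42 and 10.55 on the Ly6C+ arrays, and whose members had a median SD of 0.729 over the Ly6C- arrays and 0.218 over the Ly6C+ arrays. With 1 rosiglitazone array left out the number of lower genes ran from 6 to 11, and it was 11 without Ly6C- replicate 3. Il18 (-1.98 ± 0.22) was an exception, at 6.78, 7.22 and 7.05 on the Ly6C- arrays and 8.95, 9.18 and 8.87 on the Ly6C+ arrays.

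Immediate early and heat shock genes followed the same arrays, with median levels of 9.47, 9.96 and 10.86 on the Ly6C- arrays and 10.67, 10.99 and 10.92 on the Ly6C+ arrays. Of 14 genes 7 were lower and 0 higher, with Nr4a1, an immediate early nuclear receptor, at -1.56 ± 0.36 and Egr2 at -0.88 ± 0.30. The lower count was 3 without Ly6C- replicate 1, 3 without Ly6C- replicate 2, 4 without Ly6C+ replicate 2 and 4 without Ly6C+ replicate 3, and Egr2 lost its call without Ly6C- replicate 1 (-0.46), Ly6C- replicate 2 (-0.81) or Ly6C+ replicate 3 (-0.80). NF-κB and feedback genes were lower in 6 of 13 and higher in 1, Tnfaip2 (0.78 ± 0.22), with Bcl3 at -1.25 ± 0.17, and the lower count was 2 without Ly6C- replicate 1. The call of Tnfaip2 was lost without Ly6C- replicate 3 or without Ly6C+ replicate 1. Slc7a11, the cystine transporter, spread most of the named antioxidant genes, at 6.46, 7.71 and 9.39 on the Ly6C- arrays and 9.28, 9.07 and 9.54 on the Ly6C+ arrays. Its call (-1.44 ± 0.49, adjusted p = 0.0255) was lost without Ly6C- replicate 1 (-0.75), Ly6C- replicate 2 (-1.37), Ly6C+ replicate 1 (-1.45) or Ly6C+ replicate 3 (-1.32). Of 15 antioxidant genes 3 were higher, with Gpx4, which repairs oxidised lipids, at 1.22 ± 0.14, and Slc7a11 was the 1 lower gene.

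The interferon response was lower in 14 of 21 genes and higher in 0, and all 21 differences were below 0 (median -0.86). Most of these genes spread less over the Ly6C- arrays than the cytokines did (median SD 0.152). The median levels of the list were 9.08, 8.87 and 9.01 on the Ly6C- arrays, against 9.45, 9.88 and 9.73 on the Ly6C+ arrays. With 1 rosiglitazone array left out the lower count ran from 10 to 13. Mx1, an antiviral GTPase, read 7.43, 7.89 and 7.04 on the Ly6C- arrays and 8.72, 9.05 and 8.86 on the Ly6C+ arrays (difference -1.43 ± 0.41, adjusted p = 0.00758), a call that was lost without Ly6C- replicate 3 (-1.22). Of the genes whose promoter words are printed above, Oas3 differed by -1.27 ± 0.27, Ifit1 by -0.97 ± 0.23 and Ifih1 by -0.69 ± 0.20.

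MHC class II antigen presentation was lower in 9 of 11 genes and higher in 1 (median -1.11). Ciita, the master activator of these genes, read 6.65, 6.41 and 6.55 on the Ly6C- arrays and 7.85, 8.08 and 7.95 on the Ly6C+ arrays (difference -1.43 ± 0.15, adjusted p = 2.46e-10). The costimulatory receptor Cd86 was lower by 2.21 and the peptide loading gene H2-DMa by 1.47 on the log2 scale. Ctss, the protease that trims the class II invariant chain, was the higher member (0.80 ± 0.13). Of 16 Toll-like and Fcγ receptor genes 5 were lower and 0 higher, led by Tlr9, the DNA sensor (-1.81 ± 0.19), and the adaptor Myd88 (-0.72 ± 0.10). Chemotactic receptors and integrins were split between 3 higher and 5 lower of 15, with the laminin-binding integrin Itga6 at 1.69 ± 0.17 and Itga9 at 1.18 ± 0.21 against the chemokine receptor Ccr1 at -1.47 ± 0.16. Of 18 myeloid transcription factors 5 were higher, with Cebpa at 0.85 ± 0.23 after Bhlhe41, and 4 were lower, with Runx3 at -1.26 ± 0.15 and Irf4 at -0.74 ± 0.17.

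Markers of other cells the sort could hold were read in the same way. Neutrophil genes were lower in 5 of 14 and higher in 1, and their summed level ran from 11.5 to 11.7 on the Ly6C- arrays and from 12.4 to 12.7 on the Ly6C+ arrays (log2). The lower ones were Lcn2, Il1r2, Cd177 (-2.47), Cxcr2 (-1.55) and S100a9 (-0.42), and S100a8 was higher (0.78), but the granule genes Mpo (-0.23), Elane (-0.22), Ltf (-0.15), Camp (-0.17) and Ngp (-0.04) were not called. The part of neutrophils in the monocyte and cytokine differences was not tested. Dendritic cell genes were lower in 3 of 9 (Cd209a -1.58, Flt3 -1.29, Kmo -0.98) with summed levels of 9.21 to 9.44 on the Ly6C- arrays and 9.97 to 10.2 on the Ly6C+ arrays, and their part in the MHC class II difference was not tested. Endothelial genes were lower in 1 of 8 (Cdh5, -0.83). Muscle fibre genes were called in 1 of 12 (Myh2, -0.26, adjusted p = 0.0435) and T and NK cell genes in 1 of 10 (Klrb1c, -0.33, adjusted p = 0.048), and both calls were lost in several alternative fits. None of the 8 myoblast, 9 fibroblast, 5 B cell, 8 eosinophil and mast cell and 4 erythroid genes measured was called, and the median difference of these lists lay between -0.10 and 0.00.

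The next question was whether the subsets differed with rosiglitazone as they did without it. In untreated WT mice 9007 genes (45.2%) were called between the subsets, 4419 higher and 4588 lower on 6 arrays of each subset, and in KO mice 7661 genes (38.4%), 3948 higher and 3713 lower. The rosiglitazone and untreated comparisons share no arrays. Of the rosiglitazone calls 84.1% were also called in untreated WT, and of the untreated WT calls 43.3% were also called with rosiglitazone. These shares were 71.2% and 47.5% against untreated replicates 1 to 3 alone and 77.3% and 60.0% against replicates 4 to 6 alone. The 3896 genes called in both had the same direction but for 1, Fkbp5, a glucocorticoid-induced chaperone, which was lower with rosiglitazone (-0.53) and higher in untreated WT (0.28), and in which the rosiglitazone arrays of the subsets overlapped. There were 9 such opposite genes against replicates 1 to 3 and 1 against replicates 4 to 6. Against KO, 3613 genes were called in both and 5 of them had opposite directions. Over all genes the differences correlated at r = 0.885 with those in untreated WT (0.818 for replicates 1 to 3, 0.892 for replicates 4 to 6) and at 0.859 with those in KO, which is a description across genes measured on the same arrays and not a test.

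The size of the differences was compared over genes chosen in KO mice only, so that neither WT comparison had a part in the choice. Of 178 genes lower by at least 1 in KO Ly6C- cells, 120 had a larger difference with rosiglitazone than in untreated WT, and the median size was 1.52 with rosiglitazone, 1.34 in untreated WT and 1.33 in KO. Of 327 genes higher by at least 1, 183 were larger with rosiglitazone than in untreated WT, with medians of 1.30, 1.23 and 1.21 in the same order. The KO medians come from the arrays that chose the genes, which can raise them, so they cannot be compared with the WT medians. Against untreated WT replicates 4 to 6 alone, the lower genes were larger with rosiglitazone in 106 of 178 (median 1.49 in those replicates) and the higher genes in 156 of 327 (median 1.30). Against replicates 1 to 3, in which Lyz2 was low, the lower genes were larger with rosiglitazone in 133 of 178 and the higher genes in 193 of 327. Among the genes that differed by at least 2 in KO, 20 of 23 lower and 21 of 24 higher genes were larger with rosiglitazone than in untreated WT, and 17 of 23 and 21 of 24 than in replicates 4 to 6.

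**Figure D4:**
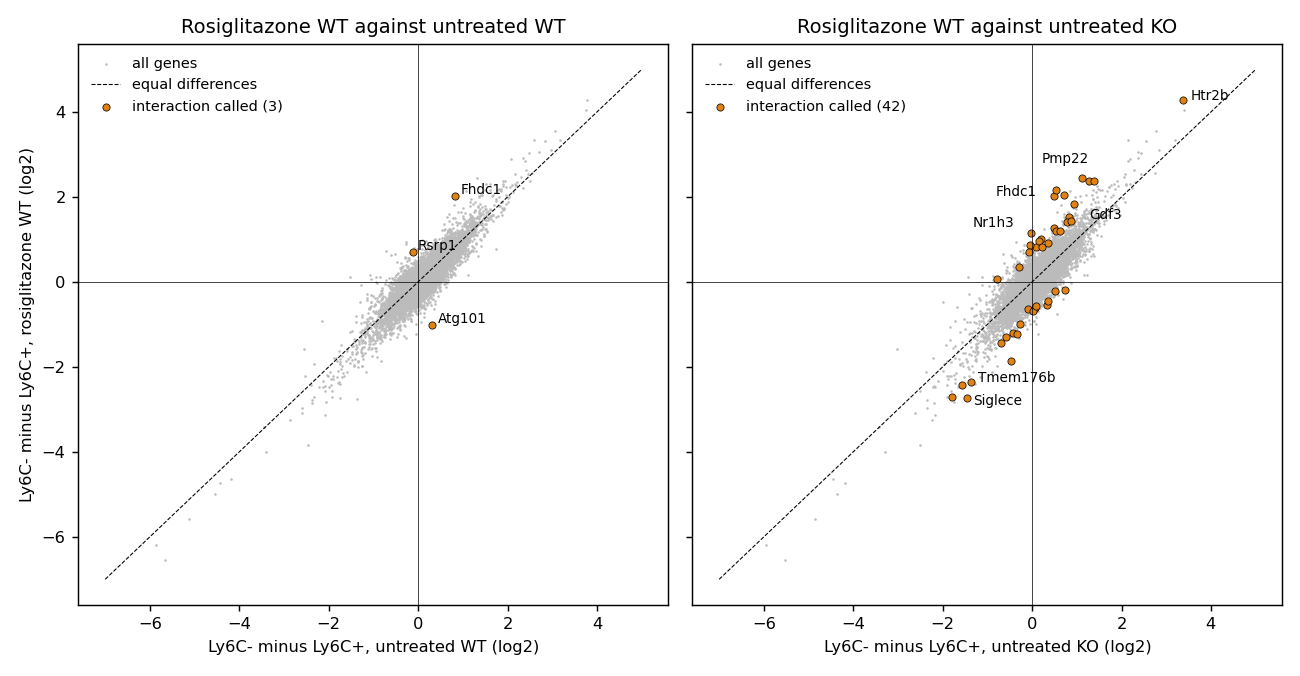
Each point is a gene, with its Ly6C- minus Ly6C+ difference (log2) in untreated WT (left) or untreated KO (right) on the horizontal axis and in rosiglitazone-treated WT on the vertical axis. The points follow the dashed line of equal differences (r = 0.885 and 0.859), and orange points mark the 3 and the 42 genes whose difference itself differed.

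A direct test of the difference between the differences called 3 genes (0.015%) against untreated WT, with a signed difference more positive with rosiglitazone in 2 and more negative in 1, and 1547 genes had an unadjusted p under 0.05. Fhdc1, a formin family gene that acts on actin and microtubules, read 7.35, 7.77 and 7.11 on the Ly6C- and 5.27, 5.61 and 5.26 on the Ly6C+ arrays with rosiglitazone, against means of 6.43 ± 0.34 (SD, n = 6) in Ly6C- and 5.60 ± 0.18 in Ly6C+ cells of untreated WT (difference of differences 1.20 ± 0.19 SE, adjusted p = 0.00504). Its rosiglitazone Ly6C- arrays lay above all other arrays of the comparison. Rsrp1 was higher in Ly6C- than in Ly6C+ cells by 0.71 with rosiglitazone and lower by 0.12 in untreated WT (difference of differences 0.83 ± 0.16, adjusted p = 0.0228). Atg101, an autophagy initiation gene, differed by -1.01 with rosiglitazone and by 0.31 in untreated WT (-1.32 ± 0.23, adjusted p = 0.0142). All 3 calls were lost in the fit of the day 2 arrays alone and against untreated replicates 4 to 6 alone, and without rosiglitazone Ly6C+ replicate 1, where 0 genes were called. Only 1 of the 3 calls was left without rosiglitazone Ly6C- replicate 3 or without rosiglitazone Ly6C+ replicate 3. There were 2 left without rosiglitazone Ly6C- replicate 1, with array medians centred and with the medians of all probe sets centred. Rsrp1 also lost its call without untreated WT Ly6C+ replicate 2 or replicate 5.

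This count depended on the untreated arrays. It was 194 without the untreated WT Ly6C+ array of replicate 4, 121 without both arrays of replicate 4, 532 against untreated replicates 1 to 3 alone and 0 against replicates 4 to 6 alone (1069 with an unadjusted p under 0.05). With the replicate number as a block, which pairs Ly6C- and Ly6C+ samples of the same number in all 3 conditions, it was 124. With the block in the rosiglitazone mice alone, where pairing by number was assumed, it was 4. It was 6 without the untreated WT Ly6C- array of replicate 4. The replicate 4 array lay with the rosiglitazone arrays in particular genes. Pmp22 read 9.45, 9.52 and 9.74 on the rosiglitazone Ly6C+ arrays and 9.71 on this array, while the other 5 untreated WT Ly6C+ arrays ran from 10.87 to 11.35. In Pmp22 the Ly6C- arrays did not part the conditions (11.91 to 12.14 with rosiglitazone, 12.02 to 12.29 in untreated WT), so its wider subset difference (2.44, against 1.31 in untreated WT, adjusted p of the difference 0.12) came with lower values in Ly6C+ cells. Without the replicate 4 Ly6C+ array the difference of differences of Pmp22 was 1.36, and it was called, as were Gpnmb, Siglece and Fabp4. That array was left out after the data were seen, and it lay far from its group in these same genes. Their calls in this setting therefore follow in part from the choice of array and are no independent support.

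Against KO, 42 genes (0.211%) were called, of which the signed difference was more positive with rosiglitazone in 24 and more negative in 18. In size it was larger with rosiglitazone in 39 and smaller in 3, and 1809 had an unadjusted p under 0.05. With the replicate block it was 360 in all conditions and 46 in the rosiglitazone mice alone, and it was 13 without rosiglitazone Ly6C- replicate 1, 15 without Ly6C- replicate 3, 7 without Ly6C+ replicate 1 and 23 without Ly6C+ replicate 3. Of the KO arrays, leaving out Ly6C- replicate 1, 3 or 4 gave 26, 27 or 20, and leaving out Ly6C+ replicate 2, 3 or 4 gave 22, 21 or 27. Treatment and genotype both differ in this comparison and cannot be told apart in it. Of the 10 genes with the smallest p, Nr1h3 had no subset difference in KO (-0.02) and a difference of 1.15 with rosiglitazone (difference of differences 1.17 ± 0.18, adjusted p = 3.55e-04). The rosiglitazone Ly6C- arrays (9.68 to 10.28) lay above the KO Ly6C- arrays (8.92 to 9.29), and the untreated WT Ly6C- arrays (9.30 to 9.73) lay above the KO arrays too. Cmbl had the same subset difference in both WT conditions (2.38 with rosiglitazone, 2.50 in untreated WT) and a smaller difference in KO (1.28, adjusted p of the difference 0.00631).

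Gpnmb, Pmp22 and Siglece differed from KO mostly on the Ly6C+ side. Gpnmb averaged 11.75 ± 0.15 (SD, n = 3) in Ly6C+ cells with rosiglitazone and 12.63 ± 0.04 (n = 5) in KO Ly6C+ cells, while its Ly6C- means were 13.03 ± 0.08 with rosiglitazone and 13.12 ± 0.03 in KO. The difference of differences was 0.78 ± 0.12 in Gpnmb, 1.33 ± 0.26 in Pmp22 and -1.28 ± 0.23 in Siglece. In Tmem176b, a membrane channel gene (-0.99 ± 0.16), both sides moved, with Ly6C- means of 8.32 with rosiglitazone and 8.78 in KO and Ly6C+ means of 10.67 with rosiglitazone and 10.14 in KO. Htr2b (0.90 ± 0.16), Wdr91, an endosome maturation gene (0.67 ± 0.13), and Lrrc39 (0.73 ± 0.11) made up the rest, with Fhdc1 (1.55 ± 0.20, adjusted p = 3.40e-05) at the head.

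Among the other genes named here, Gdf3, Fabp5, Cd9, Pilrb1, Flt3, Rsrp1 and Fkbp5 also passed against KO. Gdf3 averaged 10.02 ± 0.09 in Ly6C- cells with rosiglitazone, against 9.47 ± 0.29 in untreated WT and 8.25 ± 0.14 in KO, and 8.18 ± 0.22 in Ly6C+ cells with rosiglitazone, against 8.23 ± 0.23 in untreated WT and 7.32 ± 0.08 in KO. Its subset difference was 1.84 with rosiglitazone, 1.24 in untreated WT (adjusted p of the difference 0.35) and 0.93 in KO (adjusted p 0.032). Fabp4 (2.32, 1.53 in untreated WT and 1.25 in KO) and Angptl4 (1.82, 0.81 and 0.64 in the same order) did not pass in either interaction, with adjusted p of 0.38 and 0.077 for Fabp4 and 0.25 and 0.072 for Angptl4 against untreated WT and KO. In Angptl4 all 3 Ly6C- arrays with rosiglitazone (8.44 to 9.76) lay above all 11 untreated Ly6C- arrays (6.91 to 8.19). Igf1, by contrast, differed by 3.11 with rosiglitazone, 2.96 in untreated WT and 2.84 in KO.

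**Figure D5:**
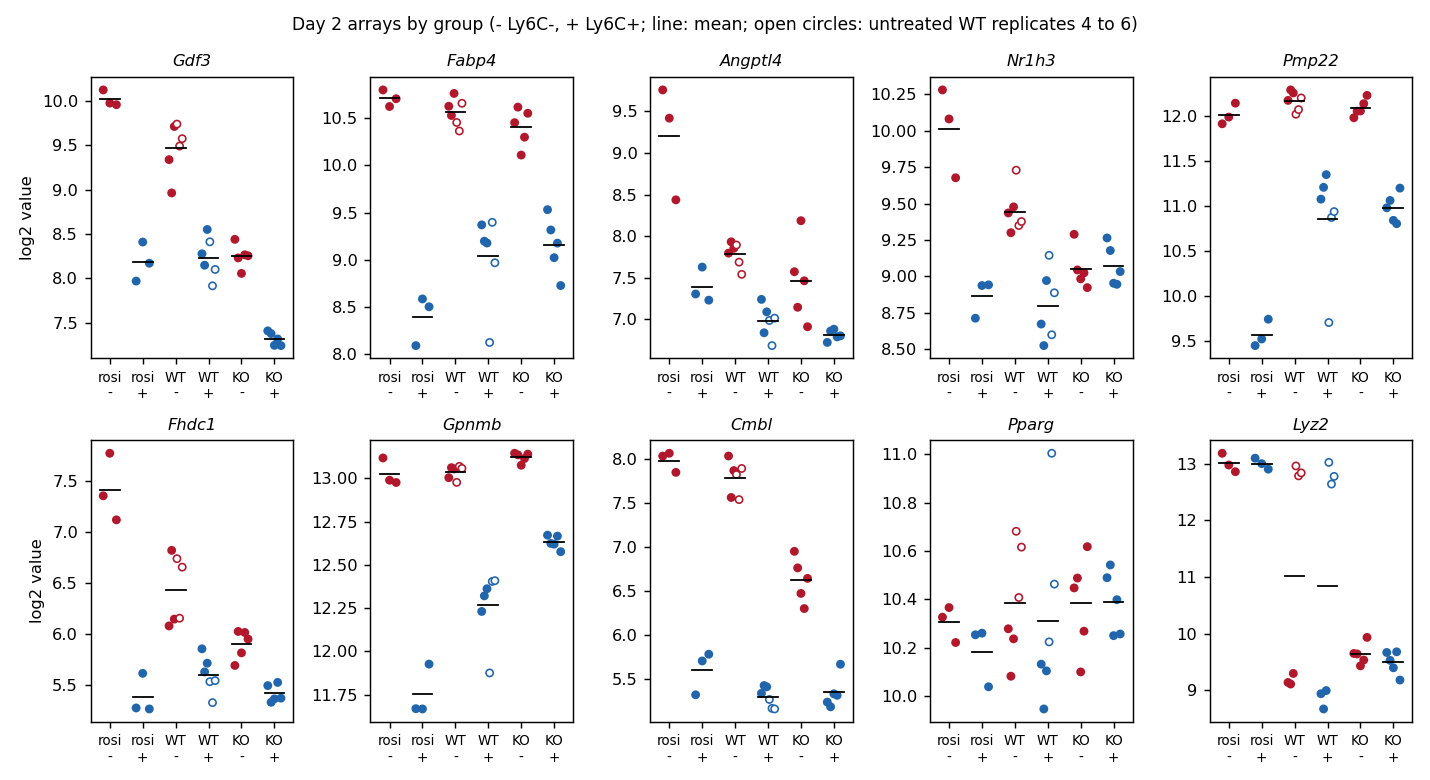
Log2 values of 10 genes on the day 2 arrays, Ly6C- (red) and Ly6C+ (blue) side by side for rosiglitazone-treated WT (3 arrays each), untreated WT (6 each, replicates 4 to 6 open) and untreated KO (5 each), with the group mean as a line. Lyz2 is high on all rosiglitazone arrays and on untreated replicates 4 to 6 only, Cmbl separates both WT conditions from KO in Ly6C- cells, and 1 untreated WT Ly6C+ array lies at the rosiglitazone level in Pmp22.

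The function lists gave the same picture as the single genes. Their median differences kept their sign in untreated WT for 24 of 26 lists (23 against replicates 1 to 3 and 24 against replicates 4 to 6) and in KO for 22 of 26. The exceptions were the PPAR and RXR list and glycolysis in both, and antioxidant and matrix genes in KO. The glycolysis and hypoxia list had a median of 0.28 with rosiglitazone, -0.21 in untreated WT (-0.37 in replicates 1 to 3 and -0.04 in replicates 4 to 6) and -0.32 in KO. DNA replication had medians of 1.18, 1.05 and 1.02 in the same order, lysosome 0.63, 0.51 and 0.39, monocyte identity -1.87, -1.81 and -1.90, and the interferon response -0.86, -0.89 and -0.87. No member of the glycolysis list passed in either interaction. With rosiglitazone the median level of that list was 9.4, 9.5 and 10.1 on the Ly6C- arrays and 9.8, 10.2 and 9.9 on the Ly6C+ arrays. By that measure Ly6C- replicates 1 and 2 lay below every Ly6C+ array, so the positive median difference of this list is uncertain.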

How the data were processed

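Sorted MFs were profiled on Affymetrix arrays after RNA was amplified with the Ambion WT Expression kit. The deposited table held log2 values from RMA, run by the authors with no version stated, for 35556 probe sets on 44 arrays, with array medians of 6.64 to 6.77. These log2 values were used as deposited. Probe sets were named by the platform annotation, in which 21789 had 1 symbol, 1621 several and 12146 none. Probe sets with 1 symbol gave 19938 genes, and for 999 genes with several probe sets the one with the highest mean was used. Genes of near-identical families can share probe signal, which was not tested.

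limma 3.58.1 in R 4.3.3 fitted 1 mean per group over all 44 arrays (34 residual degrees of freedom), with empirical Bayes moderation and Benjamini-Hochberg adjustment over 19938 genes. The 95% intervals come from the same fit. Interactions were contrasts in it. Since the labels do not tie replicates to animals, p-values measure the spread between samples. That spread is pooled over all 44 arrays, so it can understate the spread of a gene that varied more on the 6 rosiglitazone arrays. In a fit of these 6 arrays alone, 3893 genes were called between the subsets. The number of arrays limits the precision. Data were simulated with these spreads and with equal means in the 2 rosiglitazone subsets, except in a few changed genes. Of these, 41 of 68 genes changed by 0.5, 65 of 66 changed by 1 and 66 of 66 changed by 2 log2 units were recovered. There were 14 false calls among the unchanged genes. Far fewer genes were changed than were called in the data, so these rates do not carry over to it.

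The gene lists and comparisons were chosen with earlier results of these data known. They held 543 entries, of which 504 were measured. Genes were named as the 20 largest higher and 20 largest lower called differences without overlap, a fixed set of PPARγ and MF genes, up to 2 called members of each list in each direction, and the 10 called genes with the smallest p in each interaction, without predicted genes. Other list members named in the text were added after their values were seen. Same-numbered Ly6C- and Ly6C+ arrays of the rosiglitazone mice correlated in their deviations (r = 0.39, 0.443 and 0.134 for replicates 1 to 3). The replicate numbers, taken from the labels, were therefore treated as pairs there in an alternative fit, not in the main fit. Ly6C- replicate 1 and Ly6C+ replicate 3, of unlike number, gave 0.155, so pairing was not established. In untreated mice the lowest correlation of same-numbered arrays was 0.011 in WT and 0.043 in KO, and pairing was not established there either. Alternatives covered the samples fitted, the block, centring, quantile normalization, probe set averaging, dim genes, moderation, array weights and leaving out, in turn, each rosiglitazone array and, for the interactions, each untreated day 2 array.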

Additional observations from a re-analysis of the deposited data

Results flagged for a closer look

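The subset difference with rosiglitazone itself differed from that in untreated WT, by the interaction term of the fit, in Fhdc1 (1.20), Rsrp1 (0.83) and Atg101 (-1.32). Against KO it differed among the genes named here in Fhdc1 (1.55), Pmp22 (1.33), Fabp5 (1.32), Nr1h3 (1.17), Cmbl (1.10), Cd9 (0.99), Gdf3 (0.90), Htr2b (0.90), Gpnmb (0.78), Rsrp1 (0.77), Lrrc39 (0.73) and Wdr91 (0.67), where it was more positive with rosiglitazone, and in Siglece (-1.28), Tmem176b (-0.99), Pilrb1 (-0.91), Fkbp5 (-0.88) and Flt3 (-0.71), where it was more negative.

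In 5 of 68 groups of 5 or 6 arrays tested over 17 genes, 1 array lay far from the others of its group, and in all 5 it was untreated WT Ly6C+ replicate 4. It read 8.12 in Fabp4, 11.88 in Gpnmb, 9.71 in Pmp22, 10.27 in Rsrp1 and 9.61 in Siglece. Chance flags about 1 in 20 groups, and the 5 genes were read on 1 array.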

How the results depend on the processing

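Of 124 named genes called between the subsets with rosiglitazone, 112 kept their call and direction in every alternative and 0 reversed. The number of genes called was 4634, with a range of 3513 to 4825 when 1 rosiglitazone array was left out, 5482 with the replicate block and 2085 when a difference of at least 1.5-fold was also asked for. Lyz2, which was not called (0.01), turned sign with array medians centred (-0.0022), with quantile normalization (-0.0003), and when rosiglitazone Ly6C- replicate 1 (-0.083) or Ly6C+ replicate 3 (-0.0425) was left out, over a range of -0.083 to 0.0798 with 1 array left out. The interactions moved most. Against untreated WT (3 genes) the count was 0 with only the day 2 arrays, 124 with the replicate block, 5 with quantile normalization, 448 with array weights, 532 with untreated replicates 1 to 3 and 0 with replicates 4 to 6. With an array left out it ran from 0 to 194, and it was 121 without both untreated arrays of replicate 4. Against KO (42 genes) it was 8 with only the day 2 arrays, 360 with the replicate block, 26 with the medians of all probe sets centred, 78 with quantile normalization, 104 without dim genes, 975 with array weights and 7 to 60 with an array left out. With the replicate block in the rosiglitazone mice alone, the counts were 4751 between the subsets, 4 against untreated WT and 46 against KO. Centring on all probe sets, the block for rosiglitazone arrays alone and leaving out untreated WT or KO arrays were chosen after seeing the data. The causes were not tested. No detection calls were used, so the level at which signal meets background is unknown.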
